A study of Mus musculus with 34 samples.

Results

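Aqp8, Aqp3, Dhrs9, Ptprz1, Stc1, Nptx1 and Smoc2 are 7 of the 14107 genes in a count table of mouse colorectal cancer cells treated with encorafenib, a drug that blocks mutant BRAF. They were chosen by their measured log2 fold change, each for a large fall under the drug in at least 1 line and day. The encorafenib against DMSO values of these genes are therefore given as a description without a test, and the question asked of them is whether each fall was shared by the lines and days. All 7 have 1 row each in the table and were in every fit.

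Bulk RNA was sequenced from 34 libraries of NaJa-D, -F and -G, lines that grew out from peritoneal lavage of different recipient mice carrying an orthotopic transplant of a single engineered C57BL/6N organoid culture. All libraries, DMSO included, share the genotype VillinCreERT2, BrafV600E/+, Trp53R172H and APCdel, in which Cre is driven by the promoter of the gut epithelial gene villin, and each line stands for 1 outgrowth. The cells were kept in DMEM with serum and received 0.5 µM encorafenib or the matching amount of DMSO for 1 day or for 5 days, with fresh drug during the longer course. This makes 12 groups, 10 with 3 libraries and 2 with 2 libraries (day 5 of NaJa-F with the drug and of NaJa-G in DMSO), at 46007050 to 80121299 counts a library.

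BRAF carrying V600E signals through MEK to ERK without an upstream signal, and ERK drives transcription factors of the AP-1 and ETS families. Encorafenib binds the mutant kinase and cuts this signal, so transcripts that depend on it are lost, while receptors held down by negative feedback can bring part of the signal back during longer treatment. The 7 genes encode unlike proteins. Aqp8 and Aqp3 are membrane channels for water, with Aqp3 also passing glycerol, and both belong to the differentiated colon epithelium. Dhrs9 is a short-chain dehydrogenase that acts on retinol. Ptprz1 is a receptor-type tyrosine phosphatase known mainly from glial cells. Stc1, Nptx1 and Smoc2 are secreted: a stanniocalcin, a neuronal pentraxin and a calcium-binding matrix protein of the SPARC family that is also a gene of intestinal stem cells.

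Some facts of the series touch these values. In all 34 libraries the epithelial genes Epcam, Cdh1, Krt8, Krt18 and Krt19 had 65.1 or more as CPM, counts scaled to the library total. Epcam differed most of these between the lines, with medians of 965, 477 and 86.1 CPM in NaJa-D, -F and -G. The intestinal genes Vil1 and Cdx2 were lowest in NaJa-G by their median over the DMSO and treated libraries of a line. For Cdh17, which fell under the drug, the DMSO means of NaJa-D and NaJa-G were 58.7 and 55.7 CPM on day 1. On day 5 they were 32.0 and 35.8 CPM. In NaJa-F these means were higher, at 108 and 85.2 CPM. Of the other marker lists, 5 of 6 fibroblast genes were in the table and summed to 1.4 to 7.8 CPM in NaJa-D, 2.1 to 6.3 in NaJa-F and 15.0 to 131 in NaJa-G. In 1 of the NaJa-D DMSO day 1 libraries, replicate 3, the cell line field reads NaJa-G although the title reads NaJa-D. Its log2 values correlated at 0.995 or more with the libraries of its titled group and at 0.920 at most with those of NaJa-G, so it was kept, and values without it are given below. The replicates are not stated to be separate cultures, so the errors and p-values measure the spread between these libraries, which may be technical.

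In GRCm38 with GENCODE M21, Aqp8 (ENSMUSG00000030762) lies at chr7:123462291-123468004, Dhrs9 (ENSMUSG00000027068) at chr2:69380445-69404533 and Ptprz1 (ENSMUSG00000068748) at chr6:22875502-23052916, all on the plus strand. Stc1 (ENSMUSG00000014813) at chr14:69029238-69041804 and Smoc2 (ENSMUSG00000023886) at chr17:14279506-14404790 are on the plus strand too. Aqp3 (ENSMUSG00000028435) at chr4:41092722-41098183 and Nptx1 (ENSMUSG00000025582) at chr11:119538719-119547753 are on the minus strand. All 7 are protein coding. The letters before the transcription start were read for the members that RefSeq promoter windows of GRCm38.p6 covered, which were 4 of 7 (Aqp8, Aqp3, Dhrs9 and Ptprz1). The windows run from 250 bases before to 50 bases after the RefSeq start, and positions are counted from that start. Motifs were searched as exact letters on both strands: AP-1 as TGAGTCA, ETS as CGGAAGT and TCF as CTTTGAT, which do not overlap in what was found. The only match was an AP-1 element in Dhrs9, from base -18 to base -12, on the minus strand. For Dhrs9 and Aqp8 the GENCODE start given above lies before the RefSeq start, and the AP-1 letters span the GENCODE start of Dhrs9. Of all 32851 windows, 5.2% held the AP-1 letters, 6.42% the ETS letters and 3.73% the TCF letters. The Dhrs9 and Aqp8 stretches before the start are shown because these genes had the most alike levels of the channel and enzyme genes over the 12 groups, and only 1 of them holds the match (capitals mark the AP-1 letters, both are on the plus strand, at chr2:69380212-69380461 and chr7:123462044-123462293).
Dhrs9: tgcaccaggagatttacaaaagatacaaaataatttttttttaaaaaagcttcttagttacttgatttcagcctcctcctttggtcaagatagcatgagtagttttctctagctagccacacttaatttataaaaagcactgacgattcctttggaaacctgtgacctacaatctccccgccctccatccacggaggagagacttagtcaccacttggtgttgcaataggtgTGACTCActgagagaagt
Aqp8: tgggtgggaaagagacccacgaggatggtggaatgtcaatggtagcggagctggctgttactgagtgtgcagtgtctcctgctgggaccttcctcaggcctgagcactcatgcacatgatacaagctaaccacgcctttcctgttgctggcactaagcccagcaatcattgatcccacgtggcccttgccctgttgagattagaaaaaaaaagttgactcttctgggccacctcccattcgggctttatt
A match is a description of the letters and no measure of binding.

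Levels are given as CPM scaled with TMM factors, and differences as log2 fold changes of the limma-voom fit with their standard errors (SE). A gene is written as fallen or risen where the Benjamini-Hochberg adjusted p over all 14107 genes was below 0.01. For the 7 genes under encorafenib this threshold is no test, since the same values chose them, and it only marks which differences were large beside their error. In bulk RNA, fewer cells with a transcript and less of it per cell cannot be told apart.

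Aqp8 fell in all 3 lines on both days. In NaJa-D on day 1 the DMSO libraries had 105, 114 and 122 CPM and the encorafenib libraries 0.828, 3.53 and 1.84 CPM. The groups lay far apart, and replicate 2 of the treated group was the highest of its 3. The log2 fold change was -6.05 (SE 0.23), which left 1.82% of the DMSO mean, and no gene of the table fell further in this comparison or on day 5 in this line. Without replicate 1 of the treated group, the lowest library, it was -5.45. On day 5 the DMSO libraries had 33.4, 41.0 and 34.4 CPM, against 0.498, 0.603 and 0.670 CPM under encorafenib, a log2 fold change of -5.92 (SE 0.34).

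In NaJa-F the Aqp8 fall was shallower. The day 1 values were 33.8, 35.1 and 34.3 CPM in DMSO and 2.37, 2.21 and 2.18 CPM with the drug, a log2 fold change of -3.93 (SE 0.21). On day 5 they were 16.6, 14.0 and 15.4 CPM against 1.36 and 1.61 CPM, a log2 fold change of -3.36 (SE 0.31) that left 9.67% of the DMSO mean. NaJa-G began from the lowest Aqp8 level, with 8.0, 9.43 and 10.6 CPM in DMSO on day 1, and went to 0.240, 0.198 and 0.182 CPM. Its day 5 libraries had 4.82 and 5.86 CPM in DMSO and 0.0452, 0.125 and 0.136 CPM with encorafenib. The last values rest on 3, 8 and 10 reads, so the log2 fold change of -5.74 (SE 0.61) is the least exact of the 6. No DMSO library overlapped with a treated one in any line or day.

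Aqp3, the second channel, showed the widest range of responses. In NaJa-D on day 1 the DMSO values of 8.84, 10.8 and 8.68 CPM overlapped with the encorafenib values of 9.51, 8.46 and 7.69 CPM, and the log2 fold change was -0.13 (SE 0.09). By day 5 this line had 10.1, 11.1 and 11.0 CPM in DMSO and 7.29, 6.27 and 7.75 CPM with the drug, a fall of -0.61 (SE 0.09) on the log2 scale. In NaJa-F the fall was -1.11 (SE 0.14) on day 1 and -2.18 (SE 0.20) on day 5.

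NaJa-G held the highest Aqp3 level and the deepest fall. Its DMSO libraries had 38.3, 37.3 and 37.9 CPM on day 1 and the treated ones 8.54, 8.50 and 8.74 CPM, a log2 fold change of -2.14 (SE 0.07). On day 5 the values were 40.9 and 43.4 CPM against 1.30, 1.62 and 1.21 CPM. The log2 fold change of -4.95 (SE 0.13) left 3.26% of the DMSO mean, compared with 66.1% in NaJa-D on the same day. From day 1 to day 5 the response became more negative by -0.48 (SE 0.13) in NaJa-D, -1.07 (SE 0.25) in NaJa-F and -2.81 (SE 0.15) in NaJa-G, all as log2 differences.

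Dhrs9, the retinol dehydrogenase, fell in every line and on both days. In NaJa-D the day 1 DMSO libraries had 49.2, 48.7 and 59.1 CPM and the treated ones 1.93, 3.56 and 2.42 CPM, a log2 fold change of -4.36 (SE 0.15). NaJa-F, with 38.5, 39.6 and 40.3 CPM in DMSO, kept more of the transcript at 4.21, 4.30 and 5.15 CPM, a log2 fold change of -3.12 (SE 0.12). The deepest fall was that of NaJa-G on day 1, from 29.3, 31.1 and 32.4 CPM to 0.705, 0.648 and 0.708 CPM, or 2.22% of the DMSO mean.

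Dhrs9 was the member whose response in NaJa-G was shallower on day 5 than on day 1 by the widest margin. The day 5 libraries of NaJa-G had 19.6 and 17.5 CPM in DMSO and 0.784, 1.14 and 1.17 CPM with encorafenib, all above the treated day 1 libraries. The log2 fold change went from -5.48 (SE 0.24) to -4.17 (SE 0.21), a difference of 1.31 (SE 0.32). On day 5 the log2 fold change was -4.70 (SE 0.20) in NaJa-D and -2.80 (SE 0.15) in NaJa-F.

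Ptprz1, the receptor phosphatase, was high in NaJa-D alone. In that line the DMSO libraries had 29.1, 31.0 and 33.1 CPM on day 1 and the treated ones 2.02, 3.56 and 2.03 CPM, a log2 fold change of -3.66 (SE 0.17). On day 5 they had 25.0, 22.9 and 20.1 CPM against 1.32, 1.27 and 1.40 CPM, a log2 fold change of -4.09 (SE 0.21). The other lines were low to begin with, at 0.560 to 0.874 CPM over the DMSO libraries of NaJa-F and 0.831 to 2.11 CPM over those of NaJa-G.

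From these low levels Ptprz1 differed most under encorafenib in NaJa-G on day 1, with 1.06, 1.65 and 2.11 CPM in DMSO and 0.545, 0.463 and 0.405 CPM with the drug, a log2 fold change of -1.67 (SE 0.35). In NaJa-G on day 5 the log2 fold change was -1.13 (SE 0.37), in NaJa-F on day 1 -1.07 (SE 0.42) and in NaJa-F on day 5 -0.60 (SE 0.43). The libraries of NaJa-F overlapped on day 5, at 0.859, 0.874 and 0.654 CPM in DMSO against 0.730 and 0.373 CPM. Without replicate 3 of its DMSO group the NaJa-G day 5 log2 fold change was -1.66. With 15 to 28 reads in the treated NaJa-F libraries of day 1, a smaller difference was hardly detectable at this depth.

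Stc1, a secreted glycoprotein that binds and blocks the protease PAPP-A, fell in all 6 comparisons within the narrowest range of the 7 genes, from -3.70 to -4.94 on the log2 scale. In NaJa-G the DMSO libraries of day 1 had 220, 209 and 219 CPM and the treated ones 10.8, 10.9 and 11.5 CPM, a log2 fold change of -4.29 (SE 0.09). NaJa-D started far lower, at 9.11, 8.49 and 10.9 CPM, and went to 0.211, 0.736 and 0.169 CPM on day 1, which rest on 14, 43 and 9 reads, a log2 fold change of -4.94 (SE 0.31). Without replicate 2 of the treated group, the highest library, this became -5.57. The treated NaJa-G libraries thus kept about as much Stc1 as the DMSO libraries of NaJa-D held, and these groups overlapped.

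On day 5 Stc1 stood at 5.47, 5.53 and 4.10 CPM in DMSO and 0.249, 0.131 and 0.130 CPM with encorafenib in NaJa-D, or 14, 10 and 7 reads, a log2 fold change of -4.89 (SE 0.36). In NaJa-F the values were 14.4, 13.4 and 15.0 CPM against 1.02, 1.07 and 1.18 CPM on day 1, and 19.8, 19.7 and 20.8 CPM against 0.883 and 0.730 CPM on day 5. The day 5 log2 fold change was -4.63 (SE 0.26) in NaJa-F and -4.00 (SE 0.10) in NaJa-G. The antisense gene Gm41192 shares exon sequence with Stc1 and has no row in the table. Whether reads were counted by strand is not given in the sources used here, so reads of the pair cannot be told apart.

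Nptx1, which in neurons gathers glutamate receptors at synapses, fell in every comparison but least in NaJa-G. Here the day 1 DMSO libraries had 24.9, 27.5 and 28.4 CPM and the treated ones 7.64, 9.12 and 7.04 CPM, so 29.5% of the DMSO mean was left at a log2 fold change of -1.74 (SE 0.11). The fall was -2.65 (SE 0.15) on day 5 in this line. In NaJa-F on day 5 the values were 18.5, 17.9 and 16.8 CPM in DMSO against 0.510 and 0.601 CPM, or 3.13% of the DMSO mean, the deepest Nptx1 fall. NaJa-D lay between them with -3.15 (SE 0.18) on day 1 and -3.38 (SE 0.24) on day 5.

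Smoc2 fell in all 6 comparisons, with standard errors of 0.14 or less. In NaJa-G the DMSO libraries had 301, 293 and 293 CPM on day 1 and the treated ones 43.5, 45.4 and 44.5 CPM, a log2 fold change of -2.73 (SE 0.06). On day 5 they had 369 and 389 CPM against 21.7, 20.6 and 19.7 CPM, a log2 fold change of -4.20 (SE 0.07). DMSO levels had gone up and treated levels down between the days.

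The same held in the other lines. Smoc2 in NaJa-F went from 79.1, 72.7 and 69.7 CPM in DMSO to 15.2, 15.2 and 14.5 CPM on day 1, and from 93.4, 96.7 and 94.5 CPM to 4.42 and 4.33 CPM on day 5. In NaJa-D it went from 13.1, 13.4 and 11.5 CPM to 1.96, 2.47 and 1.95 CPM on day 1, and from 15.0, 17.9 and 14.5 CPM to 1.24, 1.13 and 1.45 CPM on day 5. The response thus deepened from day 1 to day 5 by log2 differences of -1.05 (SE 0.19) in NaJa-D, -2.13 (SE 0.12) in NaJa-F and -1.46 (SE 0.09) in NaJa-G. Aqp3 and Nptx1 had a negative difference between the days in all 3 lines too, although that of Nptx1 in NaJa-D was -0.22 (SE 0.30), within its error.

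**Figure D1:**
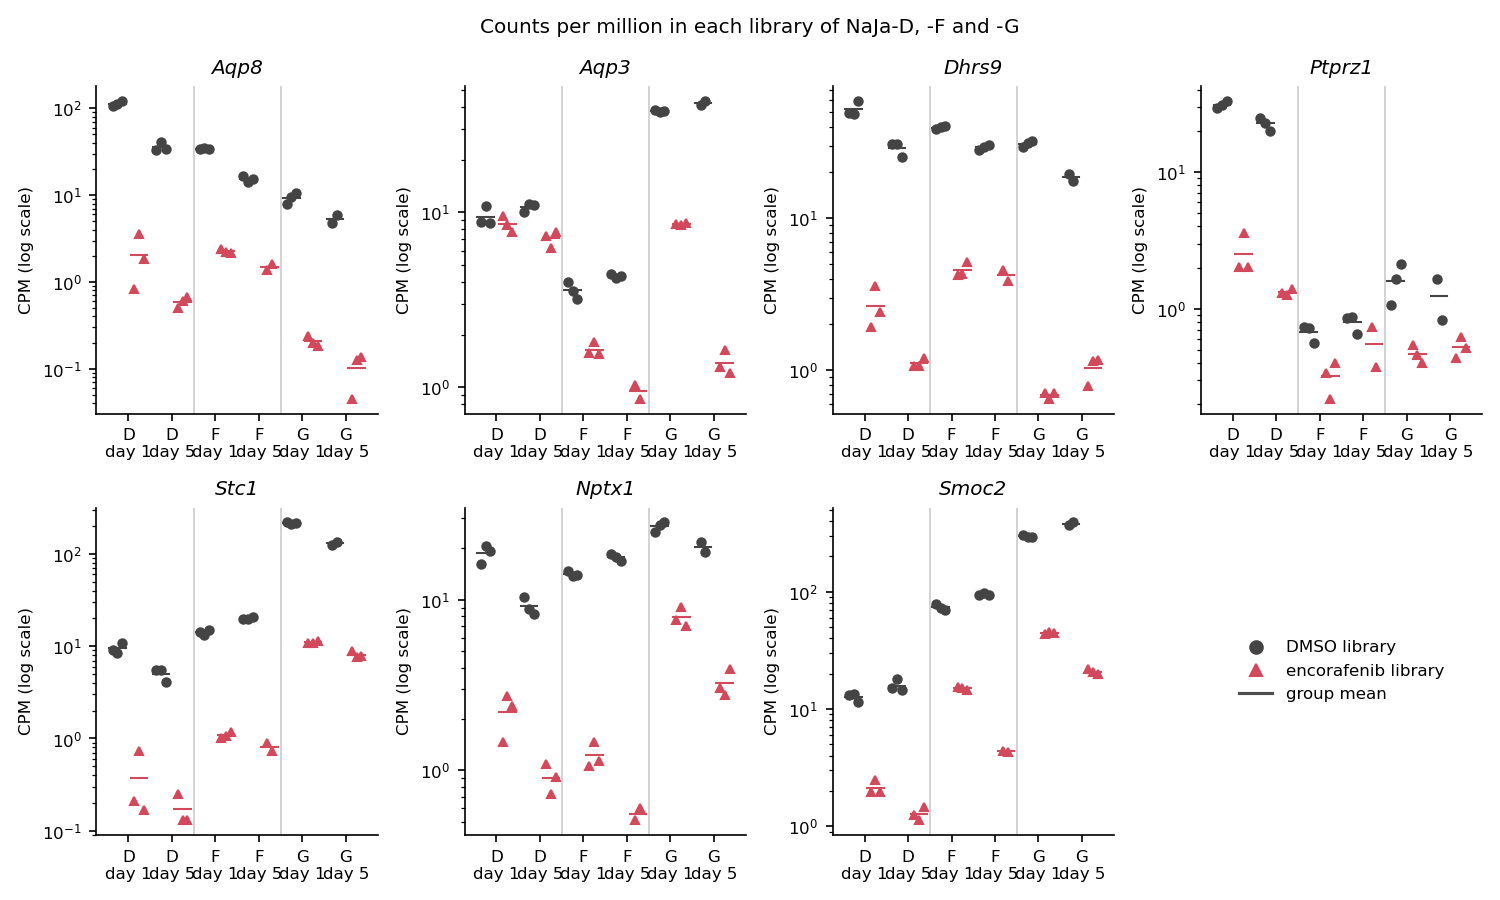
CPM on a log axis for each of the 7 genes, with 1 point for each library of NaJa-D, -F and -G on day 1 and day 5 (grey circles, DMSO; red triangles, encorafenib; lines, group means). Treated points lie under the DMSO points of the same line and day except for Aqp3 in NaJa-D on day 1 and Ptprz1 in NaJa-F on day 5.

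Counted by the threshold over the comparisons, Aqp8, Dhrs9, Stc1, Nptx1 and Smoc2 fell in 6 of 6, Aqp3 in 5 of 6 and Ptprz1 in 3 of 6. A fall in all 6 was called for 433 genes, 3.07% of those tested. In NaJa-D 6 of the 7 genes fell on day 1 and 7 on day 5, where 21.2% and 14.7% of all genes fell. In NaJa-F 6 fell on each day, beside 12% and 8.50% of all genes. In NaJa-G 7 fell on day 1 and 6 on day 5, beside 28.7% and 24.7% of all genes. Nothing is read from these counts, since the same contrasts chose the genes.

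The treated libraries lay under all DMSO libraries for 6 genes in NaJa-D on day 1, 7 on day 5, 7 in NaJa-F on day 1, 6 on day 5, and 7 in NaJa-G on each day. Over all genes this share was 26.1%, 24.7%, 29.1%, 27.3%, 33.5% and 35.4% in that order. The median log2 fold change of the 7 genes ran from -2.73 in NaJa-G on day 1 to -4.17 in NaJa-G on day 5, whereas the median over all genes stayed between -0.02 and 0.04. Without the library whose labels conflict, the NaJa-D day 1 log2 fold changes moved little, to -6.03 for Aqp8, -0.21 for Aqp3 and -4.87 for Stc1.

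**Figure D2:**
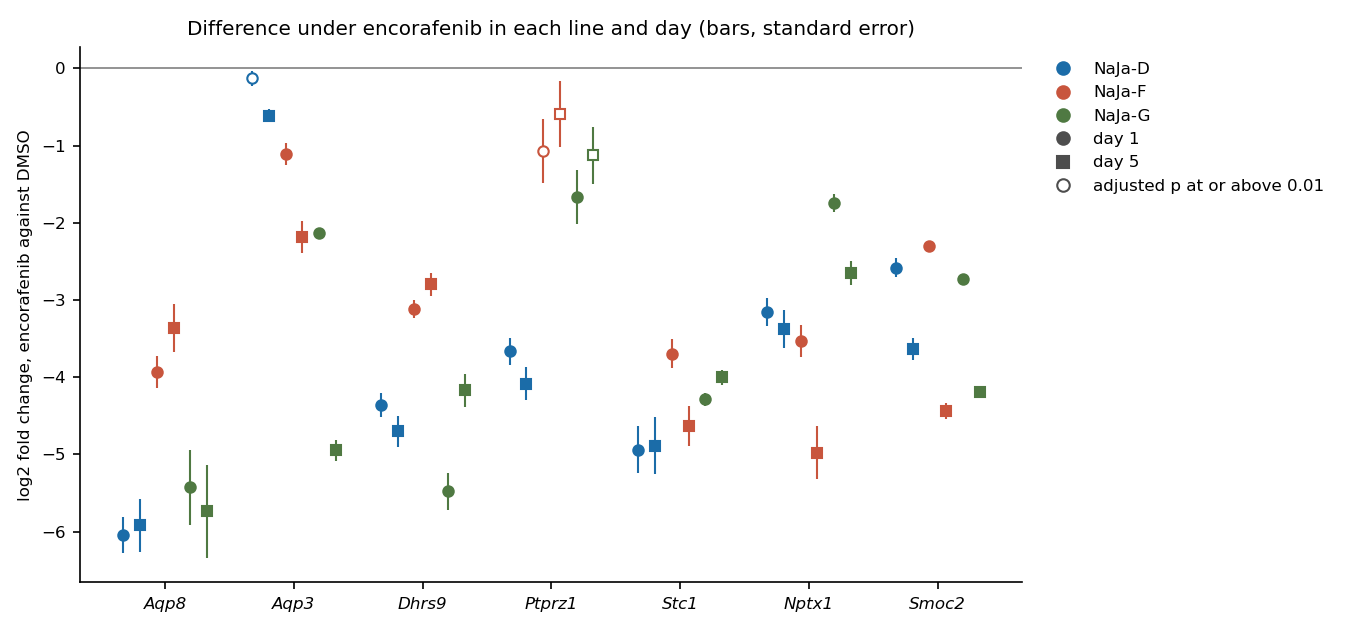
Log2 fold change of encorafenib against DMSO for each gene in each line (colours) and day (circles, day 1; squares, day 5), with bars for the standard error and open symbols where the adjusted p was 0.01 or more. Stc1 stays between -3.70 and -4.94, while Aqp3 runs from -0.13 in NaJa-D on day 1 to -4.95 in NaJa-G on day 5.

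The order of the lines differed from gene to gene. For Aqp8 the response in NaJa-F was weaker than that in NaJa-D by log2 differences of 2.12 (SE 0.31) on day 1 and 2.56 (SE 0.46) on day 5, while NaJa-G and NaJa-D differed by 0.18 (SE 0.70) on day 5, within the error. For Nptx1 it was NaJa-G that responded less, by 1.79 (SE 0.24) on day 1 and 2.33 (SE 0.37) on day 5 when set against NaJa-F. For Aqp3 NaJa-G responded most, by -4.34 (SE 0.16) against NaJa-D on day 5. These differences are built from the contrasts that chose the genes and carry no test.

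Other genes had log2 fold changes as low. The lowest log2 fold change of a member over the 6 comparisons was -4.09 for Ptprz1 at the shallow end and -6.05 for Aqp8 at the deep end, and 44 other genes had a value at or under -4.09. Examples are Rgs5 at -7.89, Muc5ac at -6.65, Pilra at -6.54, Pdyn at -6.34 and Grpr at -6.29. Gm38554, Chrdl1 and Gpm6a, also among them, did not pass the threshold in the comparison of their lowest value. Of these 44 genes, 1 had a mean of at least 2 on the log2 CPM scale over all libraries, against 5 of the 7 members. By the size of the fall alone the 7 genes were therefore not the most strongly suppressed of the table.

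Compared between genes, levels need the length of the transcript, and are given here as mean CPM per kilobase of exon. In DMSO on day 1 Aqp8 led in NaJa-D at 71.8 and Stc1 in NaJa-G at 51.4, where Smoc2 stood at 42.6. Ptprz1, the longest of the 7 with 14245 bases of exon, was lowest in NaJa-G at 0.113 and in NaJa-F at 0.0474. Across the 12 groups the mean CPM of Stc1 covered a 1269-fold range and that of Aqp8 a 1114-fold range, but that of Aqp3 a 44.4-fold range. Among the groups ordered by Ptprz1 level, 8 of 11 neighbouring pairs overlapped, whereas 1 of 11 did for Smoc2.

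In DMSO, as means of both days, the lines differed in every member. These contrasts average both DMSO days and were not used to choose the genes, although the DMSO libraries are also a side of the contrasts that were. All 7 genes passed the threshold between NaJa-F and NaJa-D, where 61.6% of all genes did, between NaJa-G and NaJa-D (67.4%) and between NaJa-G and NaJa-F (54.4%). The secreted genes Stc1 and Smoc2 exceeded their NaJa-D level in NaJa-G by 4.61 (SE 0.08, adjusted p = 9.22e-28) and 4.57 (SE 0.05, adjusted p = 1.25e-31) on the log2 scale in limma, and in NaJa-F by 1.30 (SE 0.08) and 2.57 (SE 0.05).

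Aqp8 ran the other way, with log2 fold changes against NaJa-D of -3.18 (SE 0.11, limma adjusted p = 2.27e-20) in NaJa-G and -1.48 (SE 0.08) in NaJa-F. For Ptprz1 these were -5.17 (SE 0.18) in NaJa-F and -4.32 (SE 0.16) in NaJa-G. Aqp3 was highest in NaJa-G, 3.35 (SE 0.07) above NaJa-F, and lowest in NaJa-F. Dhrs9 differed least, by -0.70 (SE 0.06) between NaJa-G and NaJa-D and by -0.19 (SE 0.06) between NaJa-F and NaJa-D. For Dhrs9 and Nptx1 the mean of the days hides a difference between them. Nptx1 in NaJa-F and NaJa-D had means of 14.1 and 18.7 CPM on day 1 but 17.7 and 9.19 CPM on day 5. Dhrs9 had 39.4 and 52.3 CPM on day 1 and 29.3 and 29.0 CPM on day 5. The NaJa-F against NaJa-D calls of Dhrs9 and of Nptx1 (0.28, SE 0.08) were lost in edgeR and in DESeq2. For Dhrs9 the log2 fold change was -0.07 with library size scaling and -0.16 without the library whose labels conflict, and the call was lost in both, as it was without replicate 1 or 2 of NaJa-D DMSO day 5 or replicate 1 of either NaJa-F DMSO group. For Nptx1 it was lost without replicate 1 of NaJa-D DMSO day 1 (0.22) and without replicate 3 of day 5 (0.24). The higher Ptprz1 level of NaJa-G against NaJa-F (0.85, SE 0.23) became 0.62 and lost its call without replicate 1 of the NaJa-G DMSO day 5 group. NaJa-G also had the highest fibroblast marker sum, given above, and its part in the higher Stc1, Smoc2 and Aqp3 levels was not tested.

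Levels in DMSO also moved between the days. In NaJa-D 6 of the 7 genes passed the threshold for day 5 against day 1 (29.0% of all genes), in NaJa-F 4 (16.7%) and in NaJa-G 5 (34.1%). Aqp8 fell with time in DMSO in all 3 lines, by log2 fold changes of -1.66 (SE 0.11), -1.17 (SE 0.12) and -0.78 (SE 0.20) in NaJa-D, -F and -G, and Dhrs9 by -0.85 (SE 0.08), -0.43 (SE 0.08) and -0.74 (SE 0.10). Smoc2 rose in all 3, by 0.30 (SE 0.08), 0.36 (SE 0.05) and 0.36 (SE 0.06). The Aqp8 call in NaJa-G was lost in DESeq2, in a fit of the compared groups alone and without replicate 1 of the DMSO day 5 group. The Smoc2 call in NaJa-D was lost without replicate 3 of DMSO day 1 (0.23), the library with conflicting labels, and without replicate 2 of DMSO day 5 (0.22), and in the fit of only the groups compared, where that of NaJa-G was lost too.

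Stc1 and Nptx1 took different courses in different lines. Stc1 fell in DMSO by -0.92 (SE 0.13) in NaJa-D and by -0.74 (SE 0.08) in NaJa-G and rose by 0.50 (SE 0.09) in NaJa-F, where all 3 day 5 libraries lay above the day 1 libraries. Nptx1 fell by -1.01 (SE 0.12) in NaJa-D and by -0.40 (SE 0.10) in NaJa-G, while in NaJa-F the log2 fold change of 0.33 (SE 0.10, limma adjusted p = 0.0185) did not pass, though it did with library size scaling (0.41) and with the compared groups alone in the fit (0.36). The Nptx1 call in NaJa-G was lost in edgeR, in DESeq2, with library size scaling, with only the groups compared, and without replicate 3 of either DMSO group. Ptprz1 fell in NaJa-D by -0.46 (SE 0.10), a call that edgeR, DESeq2 and library size scaling did not give. Aqp3 passed in no line, with log2 fold changes of 0.19, 0.28 and 0.16 in NaJa-D, -F and -G, but with library size scaling it passed in NaJa-D (0.36, limma adjusted p = 0.0037) and NaJa-G (0.23, limma adjusted p = 0.00834).

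**Figure D3:**
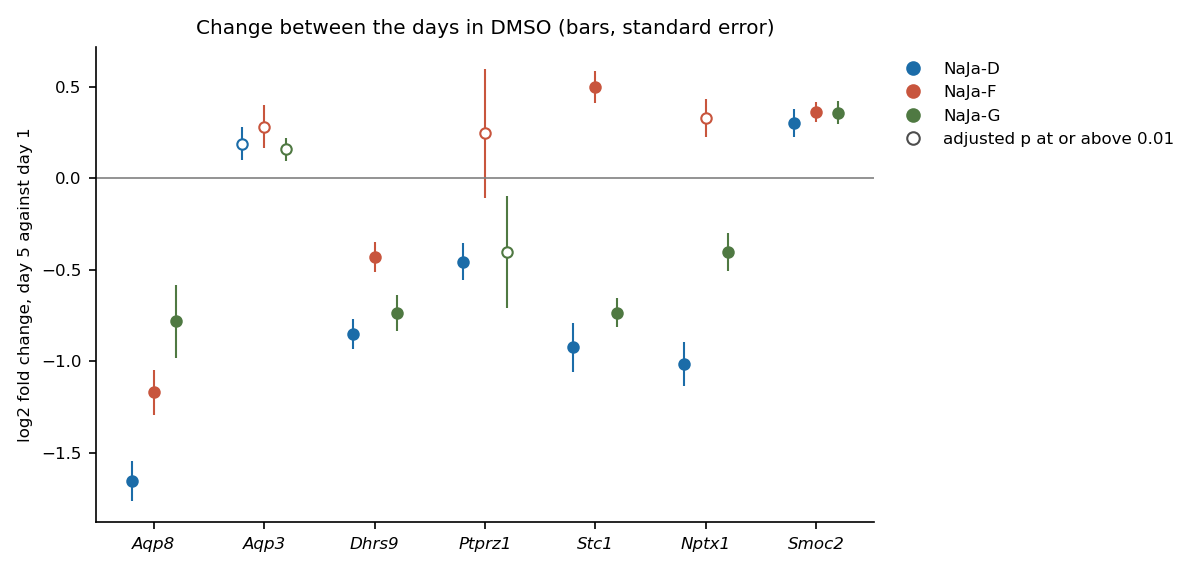
Log2 fold change of day 5 against day 1 in DMSO for each gene in NaJa-D, -F and -G, with bars for the standard error and open symbols where the adjusted p was 0.01 or more. Aqp8 and Dhrs9 lie under 0 and Smoc2 above 0 in all 3 lines, and Stc1 is above 0 in NaJa-F alone.

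The relatives and pathway partners of the 7 genes were read from lists of 74 genes, of which 49 were in the table, with the limma test over all genes. A call in either direction was made for 44.9% of all genes in NaJa-D on day 1, 33.0% on day 5, 29.5% in NaJa-F on day 1, 18.2% on day 5, 64.0% in NaJa-G on day 1 and 53.2% on day 5. Among the other aquaporins, 4 of 9 were in the table. Aqp5, a water channel of glands, fell in all 6 comparisons, from a mean of 85.2 to 38.8 CPM in NaJa-F on day 1 and from 66.3 to 14.6 CPM on day 5. Aqp1 fell in 5 of 6 and had a log2 fold change of -0.07 in NaJa-D on day 5. Aqp9 fell in none and rose in NaJa-D on day 1 (0.81, SE 0.21) and in NaJa-G on day 5 (1.94, SE 0.34). Aqp11 fell in NaJa-G on both days and passed in no other line.

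The retinoid list had 14 of 19 genes in the table and moved both ways, with 6 higher and 2 lower in NaJa-D on day 1, 6 and 5 on day 5, 6 and 1 in NaJa-F on day 1, 2 and 4 on day 5, 10 and 2 in NaJa-G on day 1, and 6 and 3 on day 5. Rdh10, which like Dhrs9 oxidises retinol, rose in all 6 comparisons, most in NaJa-G on day 1 from 134 to 788 CPM (log2 fold change 2.56, SE 0.07). Rarb, a retinoic acid receptor that is itself a retinoic acid target, rose in all 6 as well, by 0.74 to 3.51 on the log2 scale. Dhrs3, which reduces retinal back to retinol, rose in 5 of 6. Aldh1a3, which makes retinoic acid, fell in all 6, most in NaJa-G on day 5 from 36.3 to 3.44 CPM. Dhrs9 and Aldh1a3 thus fell in the comparisons in which Rdh10 rose.

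For Stc1, the closest relative and the bound protease moved in opposite directions. Stc2, which also blocks PAPP-A, fell in all 6 comparisons by -0.50 to -1.77 on the log2 scale. Pappa, the gene of that protease, rose in all 6, from 0.274 to 2.91 CPM in NaJa-G on day 1 and from 0.172 to 15.4 CPM on day 5 (log2 fold change 6.42, SE 0.36). In NaJa-D Pappa went from 1.82 to 27.6 CPM on day 5. Igfbp4, a substrate of PAPP-A, passed in none of the 6. Pappa2, also in this list, moved both ways at group means of 1.05 CPM or less. It fell in NaJa-F on day 1 (-2.35, SE 0.45) and rose in NaJa-G on day 5 (1.85, SE 0.38).

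Of the 8 relatives, ligands and partners of Ptprz1, 5 were in the table. Nrcam, a cell adhesion molecule that binds this phosphatase, fell in all 6 and, like Ptprz1, most in NaJa-D, from 233 to 32.0 CPM on day 1. Ptn, the ligand pleiotrophin, rose in 4 of 6 comparisons, most in NaJa-G on day 1 from 2.63 to 50.9 CPM (log2 fold change 4.28, SE 0.12), and fell in NaJa-F on day 5 by -1.44 (SE 0.32). Its rise in NaJa-D on day 5 was from a mean of 0.0173 to 0.103 CPM, a level of few reads. Nptx2 fell in NaJa-D and NaJa-F on day 1 and passed in no other comparison, and the pentraxin receptor Nptxr in 4 of 6. Sparc, the founding member of the family that holds Smoc2, rose in 5 of 6 while Smoc2 fell, from 76.5 to 355 CPM in NaJa-G on day 1.

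Among colonocyte genes, with 7 of 13 in the table, 3, 1, 2, 1, 3 and 2 rose and 1, 3, 2, 3, 2 and 3 fell in NaJa-D, -F and -G, day 1 before day 5 in each. Cdh17, an intestinal cadherin, fell in all 6 by -1.98 to -4.94, and Car2, a carbonic anhydrase, rose in all 6 by 0.79 to 2.64 on the log2 scale. Krt20, a keratin of the differentiated surface, fell in 5 of 6 and rose in NaJa-D on day 1, and Vil1 rose in 2 and fell in 3. Guca2a rose in NaJa-F and NaJa-G on day 1 and Muc2 in NaJa-G on day 5, from DMSO means of 0.0646, 0.128 and 0.236 CPM. Of 10 established ERK targets, all in the table, 7, 5, 7, 5, 8 and 9 fell in NaJa-D day 1 and day 5, NaJa-F day 1 and day 5 and NaJa-G day 1 and day 5, while 2, 2, 0, 2, 0 and 0 rose. The share of all genes that fell was 21.2%, 14.7%, 12%, 8.50%, 28.7% and 24.7% in the same order, and the median of the list ran from -0.16 in NaJa-D on day 5 to -1.77 in NaJa-G on day 1. Egr1, an immediate early transcription factor, rose in NaJa-D on day 5 by 1.63 (SE 0.14) and fell in NaJa-G on day 1 by -1.63 (SE 0.10). Ier3 rose in NaJa-D on both days and Dusp4 in NaJa-F on day 5. Etv5, an ETS factor, fell by -1.42 to -2.75 and Spry4, a feedback inhibitor of the pathway, by -0.91 to -3.64, both in all 6.

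**Figure D4:**
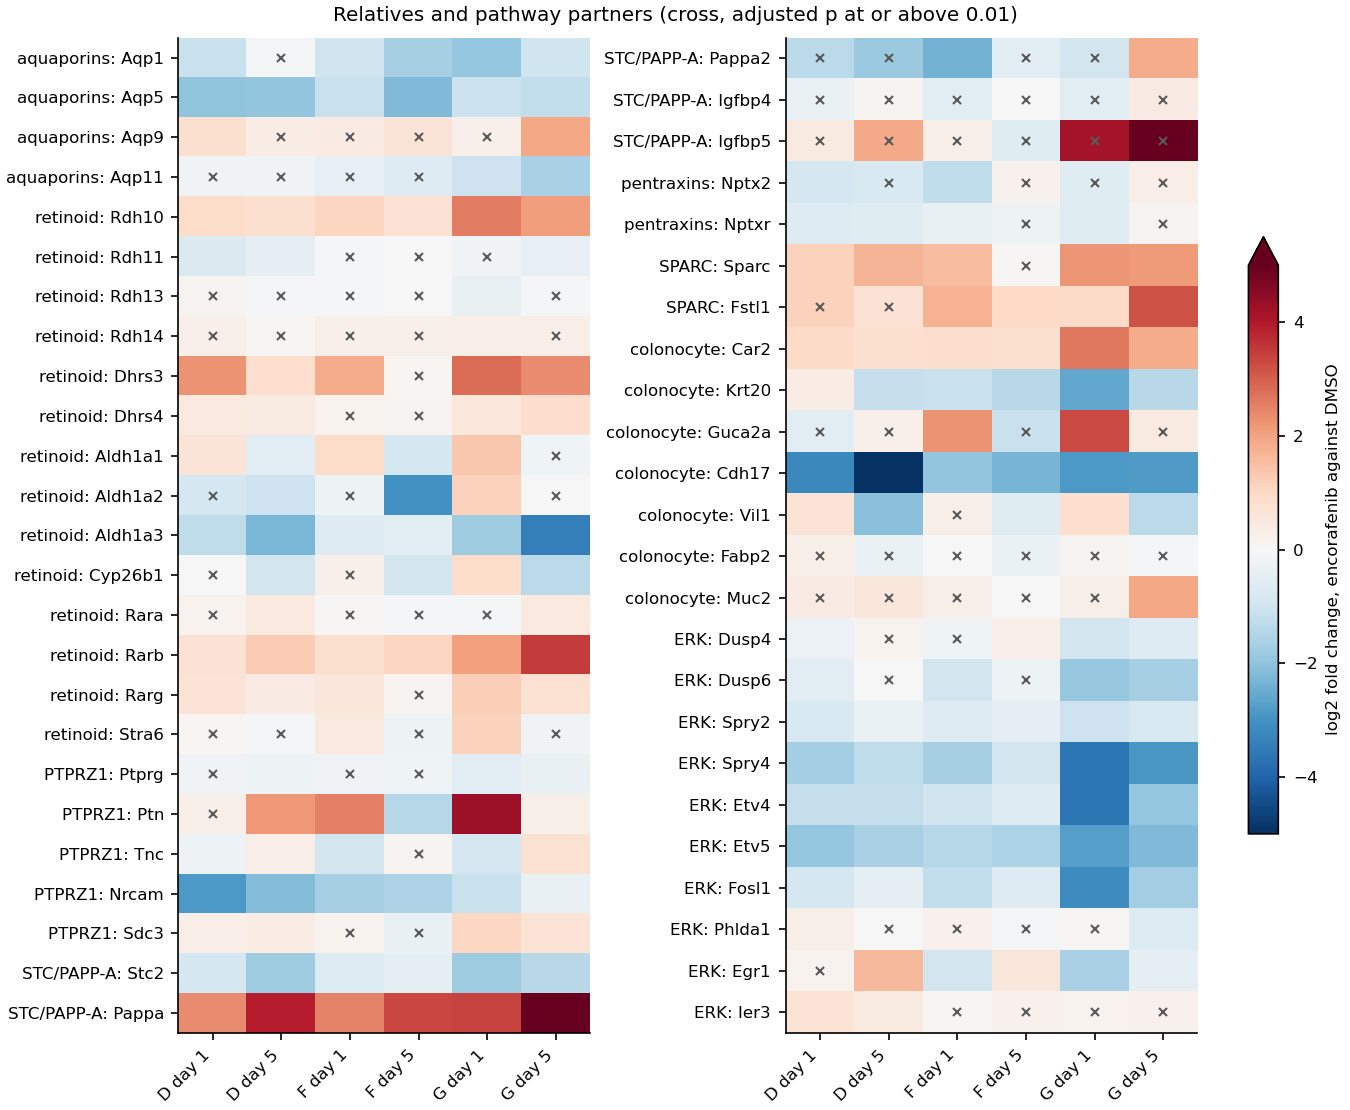
Log2 fold change of encorafenib against DMSO for the 49 relatives and pathway partners in the table, by line and day, with the list before each gene (blue, lower; red, higher; cross, adjusted p 0.01 or more). The colours are capped at 5, which Igfbp5 and Pappa pass in NaJa-G on day 5, and Pappa and Rdh10 are red while Aqp5, Stc2, Aldh1a3 and Nrcam are blue in every column.

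By their level over the 12 group means, the members fell into patterns that overlap with the lines. Aqp8 and Dhrs9 had a Pearson r of 0.954 and Stc1 and Smoc2 one of 0.962, whereas Ptprz1 and Smoc2 had -0.15. Outside the 7 genes, Antxr2 was most like Aqp8 (r = 0.965), Cant1 most like Aqp3 (0.964), Mthfd1l most like Dhrs9 (0.968), Tmx1 most like Ptprz1 (0.945) and Tango6 most like Stc1 (0.966). Ism1, a secreted isthmin, was most like Nptx1 (0.934) and also among the 3 most like Stc1 (0.962). Sox2, a transcription factor of stem cells, was most like Smoc2 (0.98). All points share the 3 lines and 2 treatments, and these correlations are descriptions.

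The marker lists moved with the treatment as well. The summed level of the 8 epithelial genes lay above that of DMSO in every treated library in 5 of 6 comparisons and overlapped in NaJa-G on day 5. This sum is nearly all Epcam, Cdh1, Krt8, Krt18 and Krt19, whereas Cdh17 of the same list fell in every comparison and Vil1 moved both ways. In NaJa-G on day 1 the sums were 3329 to 4146 CPM in DMSO and 5067 to 5220 CPM with encorafenib. The mesothelial sum, nearly all of it Msln, was 1236 to 1513 CPM in DMSO and 2604 to 3520 CPM with the drug in NaJa-D on day 1, while Upk3b and Lrrn4 stayed at 6.40 CPM or less and Wt1 had no row. The fibroblast sum in NaJa-G on day 5 was 15.0 to 17.8 CPM in DMSO and 115 to 131 CPM with the drug. Of the immune list 1 of 5 genes had a row, Cd68 at 3.32 to 7.26 CPM, and of the endothelial list 1 of 3, Kdr at 1.36 CPM or less. The part of these shifts in the falls of the 7 genes was not tested.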

How the data were processed

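The authors deposited 1 table of raw read counts per Ensembl gene for the 34 NaJa libraries. The submitters' processing notes name Trimmomatic 0.39 and STAR 2.5.2b and the mouse build GRCm38 (mm10), while the counter, its annotation release and its use of strand are not given in the sources used here. Samples were grouped by line, treatment and day from their titles. Symbols came from GENCODE M21 and matched 14064 of 14107 genes.

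All genes were fitted with limma 3.58.1 on voom weights (TMM factors from edgeR 4.0.16, R 4.3.3, 12 group means, two-sided moderated test), with Benjamini-Hochberg adjustment per comparison and a threshold of 0.01. CPM used TMM factors, and log2 CPM for likeness a prior count of 2, over genes with a mean of at least 2. The script was tested on simulated counts. Alternatives were edgeR's quasi-likelihood test, DESeq2 1.42.0, RLE or library size scaling, a low-count filter, the replicate number as a block, only the groups compared, and leaving out each library. Replicates of a group differed by 3.32 to 86.6 times the counting variance, so none was a copy or a split of another's reads. This cannot tell repeat libraries of the same culture from separate cultures. Genes named were the 7 members, the gene and marker lists, the 3 genes most like each member and other genes with log2 fold changes as low. The members, lists and tests were chosen with earlier results of these data known, and the members had been picked from these values. Protein sequences were not used here.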

Additional observations from a re-analysis of the deposited data

Results flagged for a closer look

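The change of a gene from day 1 to day 5 in DMSO was compared between lines as an interaction in the limma fit, a test added after the values had been seen. It passed for 6 of 21 comparisons of a member between a pair of lines. Over all genes 4.42% passed for NaJa-F minus NaJa-D, 14.8% for NaJa-G minus NaJa-D and 6.27% for NaJa-G minus NaJa-F. NaJa-F minus NaJa-D gave a log2 difference of 1.42 for Stc1 (SE 0.16, limma adjusted p = 1.75e-06) and 1.34 for Nptx1 (SE 0.16, limma adjusted p = 3.3e-06).

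NaJa-G minus NaJa-F gave -1.23 for Stc1 (SE 0.12, limma adjusted p = 1.17e-07) and -0.73 for Nptx1 (SE 0.15, limma adjusted p = 0.0012). NaJa-G minus NaJa-D gave 0.87 for Aqp8 (SE 0.22, limma adjusted p = 0.00503) and 0.61 for Nptx1 (SE 0.16, limma adjusted p = 0.00581). Stc1 thus stood higher on day 5 in NaJa-F in 3 of 3 libraries, and lower in NaJa-D in 3 of 3 and in NaJa-G in 2 of 2. The alternative settings were not run for these differences between lines. The changes over time of Aqp8 and Nptx1 in NaJa-G, from which some are built, lost their calls in several settings, as given above.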

How the results depend on the processing

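In 7 of 532 alternative values of the encorafenib log2 fold changes the side of the threshold differed, all of Ptprz1 (NaJa-G on day 5, and NaJa-F on day 1 in DESeq2), and since these values chose the genes this says nothing of stability. For the DMSO contrasts of the 7 genes 617 of 651 values kept their direction and side of the threshold, 29 lost and 4 gained a call, and 1 reversed. Fitting only the groups compared called 3540 instead of 6335 genes under encorafenib in NaJa-D on day 1, and 1182 instead of 4804 genes with 2 instead of 5 members for time in DMSO in NaJa-G, where DESeq2 called 3 members. Leaving out a library, a lone library being assumed to vary like the other groups, gave 1462 to 1944 instead of 2361 genes for time in DMSO in NaJa-F. It moved the Ptprz1 change over time in NaJa-G from -0.40 to between -0.86 and 0.13, and the day 5 minus day 1 response of Aqp8 from 0.13 to between -0.47 and 0.64 in NaJa-D and from -0.31 to between -0.58 and 0.14 in NaJa-G. The cause was not tested. With library size as the sole scaling, the median gene moved by 0.12 in both contrasts against NaJa-D in DMSO and by 0.18 for time in NaJa-D.

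Replicate numbers were not used as pairs in the main fit. Same-numbered deviations from the group means correlated at -0.44 to 0.49. In groups this small the deviations depend on each other, so these values cannot decide whether the replicates were paired. With the replicate block 7 members fell in NaJa-G on day 5 instead of 6, and 7 members passed in each contrast of lines. Depth limits Ptprz1 outside NaJa-D, Aqp8 in treated NaJa-G and Stc1 in treated NaJa-D.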
